A study of Mus musculus with 12 samples.

Results

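The first day of differentiation was followed in C2C12 cells that received only the solvent DMSO. C2C12 is an established line of mouse myoblasts, which divide in serum-rich medium and turn into muscle cells once serum is lowered. The cells harvested after 24 h in differentiation medium (DMEM with 2% horse serum, 2 arrays) were set against the cells harvested in growth medium (DMEM with 20% fetal bovine serum, 2 arrays). These 4 arrays are all the DMSO arrays of those stages, out of 12 Illumina mouse bead arrays in the study. The other 8 hold DMSO cells after 48 h and cells given 10 uM embelin, which the series title names as a PCAF inhibitor, at the same 3 stages. All 4 arrays carry the vehicle, so no untreated culture stands behind these values. The labels give the growth-medium samples as 0 h in 1 field and as 24 h of DMSO in another, so how long the vehicle was present at that stage is not settled. They do not say that the replicates were separate cultures, so the p-values rest on a spread between arrays that may be technical only.

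Myoblasts are held in the dividing state by serum growth factors, by cyclin D with its kinases, and by Id proteins, which bind the partners of MyoD and keep it off its target genes. When serum falls, MyoD and its relative myogenin, with MEF2 factors, switch on the genes of the contractile apparatus, while cyclin-dependent kinase inhibitors and the retinoblastoma protein stop DNA replication. The cells then align, fuse and assemble sarcomeres, the repeating units of actin and myosin that shorten a muscle fibre.

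Values below are normalized log2 signals of a probe, differences are 24 h minus growth medium on the log2 scale with their standard error (SE), and a gene was called at an adjusted p under 0.05 in limma over the 11452 genes tested. Between 15065 and 15570 of 45281 probes were detected on each of the 4 arrays, and replicates correlated with Pearson's r of 0.994 at 24 h and 0.997 in growth medium over genes. The 24 h label was borne out by myotube markers, with 10 of 10 called higher at 24 h, beside 26.1% of all genes tested. Of the 9 myoblast genes tested 8 were called higher at 24 h too and 1 lower (-0.56). The myoblast list therefore does not set the growth-medium stage apart. Myf5, a myoblast determination factor, did not pass the detection filter in any group. Fibroblast and smooth muscle markers were detected and rose in part (5 of 6 and 5 of 7 tested), as described with the matrix genes. The other marker lists were mostly at background. Only 1 of 10 macrophage and leukocyte genes, 1 of 10 endothelial genes and 1 of 10 neural genes entered the test, and Ptprc, Pecam1 and Tubb3 did not pass the detection filter. Only 3 of 10 adipocyte genes entered it (not Adipoq or Plin1): Lpl rose by 0.74, Pparg fell by 1.31, with 1 of its 24 h arrays not detected, and Cebpa did not pass (0.05). Of 10 osteoblast and cartilage genes 2 were tested and 1 rose. In bulk RNA, fewer cells of a kind and less RNA per cell cannot be told apart.

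Outside the 4 arrays, replicate 2 of embelin in growth medium stood apart. On the leading principal component it had a score of -48.7, against -70.7 to -70.2 for the remaining growth-medium arrays. The genes that rose most were high on that array: of 418 genes called higher by at least 2 log2 units, 417 read higher there than on its fellow replicate, by a median of 0.84. It enters the differences of the DMSO cells through the shared normalization, detection filter and estimate of the spread, and those of the embelin cells directly. For Cdkn1c it set the SE at 0.95, against 0.29 without that array and 0.12 with the 4 DMSO arrays alone. Over those 418 genes the median SE was 0.23 with it and 0.13 without it, and the difference itself was the same, since the array was left out of the fit alone. Leaving it out gave 3050 genes called higher and 3721 called lower.

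At 24 h, 2989 genes (26.1% of those tested) were called higher and 3611 (31.5%) lower, which is 57.6% in all. The rises were larger than the falls: 418 genes rose and 113 fell by at least 2 log2 units, and 54 rose and 12 fell by at least 4. Of the called genes, 433 higher ones were detected at 24 h and on neither growth-medium array, and 318 lower ones were detected in growth medium and on neither 24 h array. The balance of the calls depends on the scaling. With each array scaled to its median, 1760 genes were higher and 4181 lower, so 29.6% of calls were rises, against 45.3% with quantile normalization and 37.9% with scaling to the 75th percentile. The median difference of all genes was -0.06, and it was -0.22 and -0.12 under the median and 75th percentile scalings. Just inside the threshold lay Bloc1s4 (-0.29, adjusted p = 0.0498) and Cdc42ep1 (not detected at 24 h and at least 1.09-fold lower, adjusted p = 0.05), and just outside it Cct4 (-0.38, adjusted p = 0.0501) and Edrf1 (0.24, adjusted p = 0.0502).

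**Figure D1:**
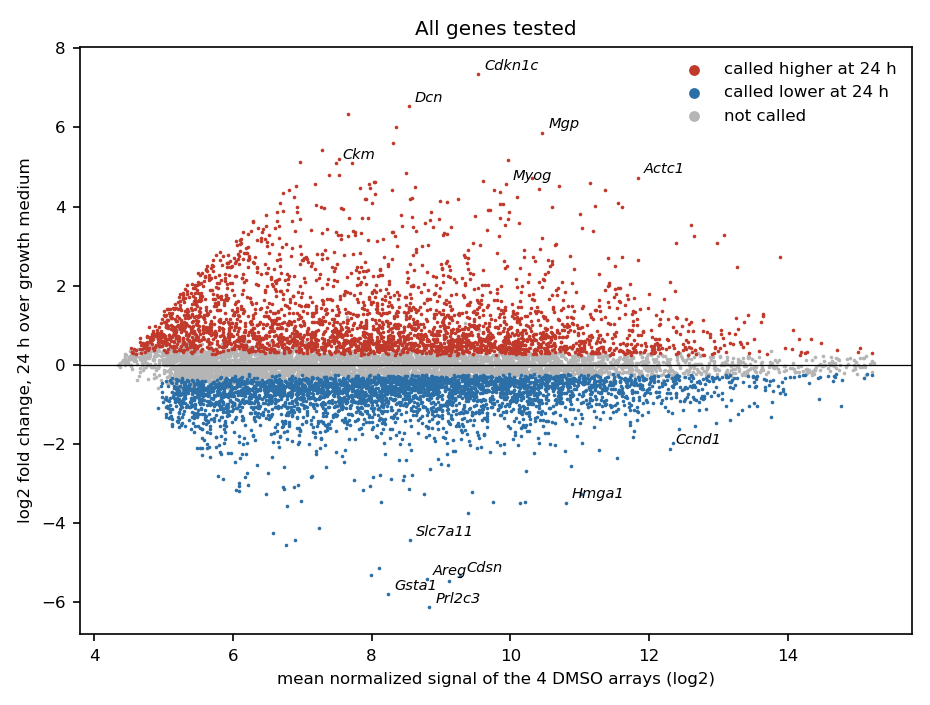
Each point is 1 of 11452 genes, with the mean normalized log2 signal of the 4 DMSO arrays on the horizontal axis and the log2 fold change of 24 h over growth medium on the vertical axis. Red points were called higher (2989), blue points lower (3611) and grey points were not called. The highest point is Cdkn1c at 7.36, and the lowest is Prl2c3 at -6.14.

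Myogenic transcription factors rose together. Myog encodes myogenin, the factor that commits a myoblast to differentiate, and it gave 12.32 and 12.11 at 24 h, against 7.69 and 7.62 in growth medium. It rose by 4.56 (SE 0.47, adjusted p = 1.56e-05). Myod1, the determination factor MyoD, gave 10.63 and 10.57 at 24 h, against 8.66 and 8.52 in growth medium. It was thus well above background before serum was lowered, and it rose by 2.01 (SE 0.17, adjusted p = 3.91e-06). Mef2c, a MEF2 factor that works with both, gave 9.08 and 9.17 at 24 h, against 6.27 and 6.40 in growth medium, a rise of 2.79 (SE 0.21, adjusted p = 2.55e-06). In all 3 genes both 24 h arrays lay above both growth-medium arrays, as for 36.1% of all genes tested. Another Mef2c probe rose by only 0.46 and was not called (adjusted p = 0.0894).

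The 250 bases upstream of the Myog start are shown because Myog is the best known switch of early differentiation. The sequence is from RefSeq on GRCm38.p6 (chr1:134289754-134290003, plus strand), and the capitals mark its 2 matches to the E-box CANNTG, the core bound by MyoD family factors, which reads the same on both strands.
Myog: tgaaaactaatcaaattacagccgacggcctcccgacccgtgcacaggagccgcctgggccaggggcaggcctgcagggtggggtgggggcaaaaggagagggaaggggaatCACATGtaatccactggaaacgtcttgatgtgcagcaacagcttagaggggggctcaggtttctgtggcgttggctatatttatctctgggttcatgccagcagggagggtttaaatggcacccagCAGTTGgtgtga
The matches are CACATG at -138 to -133 and CAGTTG at -12 to -7, counted from the start. An E-box match is common, being found in 66.2% of 32851 promoters of this length and in 56.7% of those of the genes tested, so it is a description of these letters and not a site. Entries for Mymk, Myod1 and Id1 were not held in the table and are named only.

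Among the 17 myogenic factors and partners tested, of 20 listed, 14 rose and 1 fell, with a median of 1.42, or 0.88 with median scaling. With genes that were not detected in growth medium set at their lower bound the median was 1.0. Hes6, a repressor that promotes myogenesis, rose by 2.50, and Tcf3, which encodes the E-protein partner of MyoD, by 1.60 on the probe used. The other 2 Tcf3 probes read 0.24 and -0.44 and were not called. Tead4 rose by 1.42. Eya1, which encodes a transcription cofactor, went the other way and fell by 0.82 (5.82 and 6.07 at 24 h, against 6.75 and 6.78 in growth medium). Myf6, the late factor MRF4, was detected on none of the 4 arrays (0.22, adjusted p = 0.109), although it was called under the 75th percentile scaling (0.33, adjusted p = 0.0188). Mef2d did not pass (0.07).

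**Figure D2:**
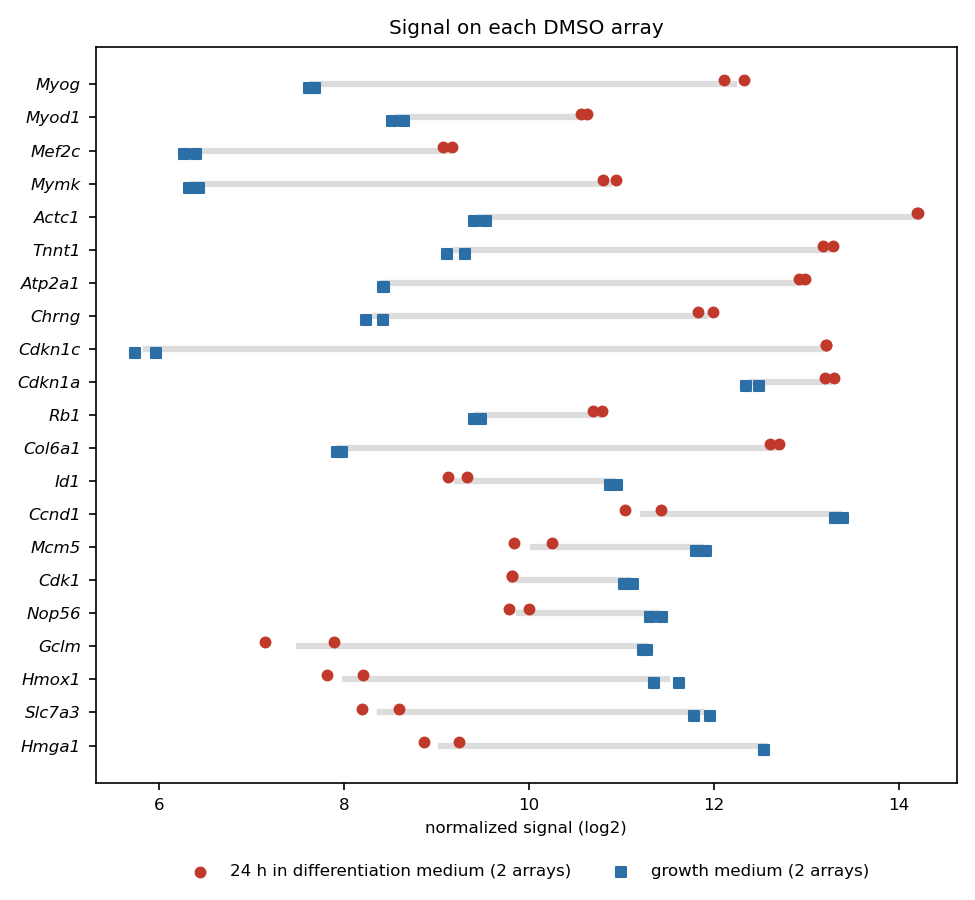
Normalized log2 signal of 21 genes on the 24 h arrays (red circles, 2 for each gene) and the growth-medium arrays (blue squares, 2 for each gene), with grey bars joining the group means. From Myog down to Col6a1 both 24 h arrays lie to the right of both growth-medium arrays, and from Id1 down to Hmga1 both lie to the left. Of all genes tested, 36.1% lie apart in the first way and 43.8% in the second.

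Repressors of myogenesis did not move as a group. Of 13 tested, 6 rose and 5 fell, beside 26.1% and 31.5% of all genes tested, and the median was 0.25, or -0.07 with median scaling. The Id genes fell. Id1 gave 9.12 and 9.33 at 24 h, against 10.88 and 10.95 in growth medium, and fell by 1.69 (SE 0.15, adjusted p = 6.05e-06). Id2 fell by 1.82 and Id3 by 1.19 (SE 0.13, adjusted p = 2.06e-05). The groups did not overlap in any of the 3, as for 43.8% of all genes tested in that direction. Twist2 and Twist1, whose products block MyoD with its partners, fell by 0.67 and 0.48. On the other side stood effectors of Notch signalling, the pathway that keeps muscle stem cells undifferentiated. Heyl rose at least 6.48-fold and Hey1 by 2.05, and Zeb1, a repressor of muscle genes, rose by 2.66.

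The Notch list as a whole had 8 of 12 tested genes higher and none lower, with a median of 1.28. Dll1, a ligand, was not detected in growth medium and rose at least 6.45-fold. The receptor genes Notch3 and Notch1 rose by 2.12 and 1.67, and Dtx4, a regulator of the pathway, by 2.54. Hes1, the best known target, rose by 0.88 and Numb, an inhibitor of Notch, by 0.73. The ligand gene Jag2 did not pass (-0.26, adjusted p = 0.105).

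The contractile apparatus gave the largest shift of any pathway list of more than 2 genes. Of 38 sarcomere genes tested, of 46 listed, 34 rose and 1 fell, and the median was 3.32. Actc1, the cardiac actin that embryonic skeletal muscle uses, gave 14.20 and 14.21 at 24 h, against 9.54 and 9.40 in growth medium, a rise of 4.73 (SE 0.53, adjusted p = 2.78e-05). Actn2, the alpha-actinin that anchors actin at the Z-disc, gave 9.92 and 9.94 at 24 h, against 5.12 and 5.13 in growth medium, where it was not detected. It rose at least 22.9-fold on the probe used, while the other Actn2 probe rose by 4.02 log2 units. Both groups were tight in these genes and did not overlap, as for 36.1% of all genes tested in that direction. Myh8, perinatal myosin heavy chain, rose at least 13.5-fold on the probe used, and Myh3, the embryonic heavy chain, by 3.99. Other Myh8 probes rose by 2.65 and 1.33 log2 units. Adult forms were low or absent: Myh1 rose at least 2.59-fold and Myh7 at least 1.55-fold, while Myh2 and Myh4 did not pass the detection filter. The fast troponin C gene Tnnc2 rose by 4.41, the titin gene Ttn by 4.09, and Unc45b, a chaperone for folding myosin, by 4.62 (SE 0.44, adjusted p = 9.30e-06). The other Unc45b probe rose by 2.09.

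Some sarcomere genes did not follow. Tpm3, a tropomyosin gene also used outside muscle, fell by 0.69 on the probe used, but its other 3 probes rose by 0.35 to 0.82, so the gene has no settled direction. Tmod4 (0.23), Myot (0.21) and Myl2 (0.00) did not pass the test, and Myot and Myl2 were detected on none of the 4 arrays. Muscle actin Acta1 was already bright in growth medium (11.43 and 11.44) and gave 14.60 and 14.45 at 24 h, a rise of 3.09. Of the 37 promoters found for 31 sarcomere genes, 81.1% held an E-box match, beside the 56.7% of genes tested given above.

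The apparatus that couples the nerve signal to calcium release rose too. In the excitation and calcium list 19 of 21 genes tested were higher, none was lower, and the median was 2.07. Casq2, a calcium store protein of the sarcoplasmic reticulum, gave 10.29 and 10.20 at 24 h, against 5.62 and 5.71 in growth medium, a rise of 4.58 (SE 0.38, adjusted p = 3.80e-06). The calcium pump gene Atp2a1 rose by 4.53, the calcium-binding protein gene Hrc by 4.47 and the release channel gene Ryr1 by 3.34. Cacna1s, the voltage sensor that opens that channel, was not detected in growth medium and rose at least 4.36-fold. Kcnj2 (0.45) and Casq1 (0.12) did not pass. A pump gene of another kind, Atp2a3, fell: it gave 6.56 and 6.24 at 24 h, against 9.87 and 9.88 in growth medium, and fell by 3.48 (SE 0.15, adjusted p = 4.27e-07).

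Genes of the neuromuscular junction, where the nerve meets the fibre, rose as well. Of 14 tested, 12 rose and none fell (median 1.19). Chrng, the fetal gamma subunit of the acetylcholine receptor, averaged 11.91 at 24 h, against 8.33 in growth medium, a rise of 3.58, while its other probe rose by 1.20. The agrin receptor gene Lrp4 rose by 2.19, and Musk, the kinase it activates, by 1.06. The adult subunit gene Chrne and the acetylcholinesterase gene Ache were detected on none of the 4 arrays (0.12 and 0.07, neither called). Chrna1, the alpha subunit, gave 13.27 and 13.37 at 24 h, against 11.37 and 11.51 in growth medium, a rise of 1.88 (SE 0.14, adjusted p = 2.26e-06). It is shown, as a gene chosen after its values were seen, for the 3 E-box matches (capitals) in the 250 bases before its start in RefSeq GRCm38.p6 (chr2:73580339-73580588, minus strand).
Chrna1: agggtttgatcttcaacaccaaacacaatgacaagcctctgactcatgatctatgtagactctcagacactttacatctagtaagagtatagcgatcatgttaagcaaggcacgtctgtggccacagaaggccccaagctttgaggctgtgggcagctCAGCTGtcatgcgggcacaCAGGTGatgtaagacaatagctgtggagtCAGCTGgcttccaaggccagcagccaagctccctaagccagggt
The matches are CAGCTG at -92 to -87, CAGGTG at -73 to -68 and CAGCTG at -44 to -39. The mean over all promoters of this length was 1.16 matches.

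Energy supply of muscle, 18 genes tested, had 14 higher and 1 lower (median 1.23, or 1.01 with bounds and 0.81 with median scaling). Ckm, muscle creatine kinase, which buffers ATP, gave 10.07 and 10.02 at 24 h, against 5.15 and 4.73 in growth medium, where it was not detected, and rose at least 24.8-fold. Cox8b, a muscle form of a respiratory chain subunit, rose by 4.61 (SE 0.43), and Pgam2, the muscle form of a glycolytic mutase, by 4.33. Cox6a2, another muscle form, was bright before serum was lowered (12.02 and 12.06) and gave 11.47 and 11.60 at 24 h, and fell by 0.50. Ampd1 (0.46), Phka1 (-0.23) and Ckmt2 (-0.01) did not pass.

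Genes of cell fusion rose in part. Mymk, which encodes myomaker, the membrane protein that myoblasts need to fuse, gave 10.94 and 10.80 at 24 h, against 6.43 and 6.32 in growth medium, a rise of 4.49 (SE 0.44, adjusted p = 1.10e-05). The M-cadherin gene Cdh15 rose by 3.06 and the integrin gene Itga7 by 2.35. Over 18 fusion and adhesion genes tested, 12 rose and 3 fell (median 1.09, or 0.68 with median scaling). Elmo1, a partner of Dock1 in moving the actin skeleton, fell by 3.44 (4.95 and 5.57 at 24 h, 1 of them detected, against 8.73 and 8.68 in growth medium), Neo1 by 0.97 and Myof, which encodes myoferlin, by 0.38. In the dystrophin complex, which ties the sarcomere to the matrix, 8 of 11 rose and none fell (median 1.30), among them the sarcoglycan gene Sgca (2.85) and Dag1 (2.36).

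**Figure D3:**
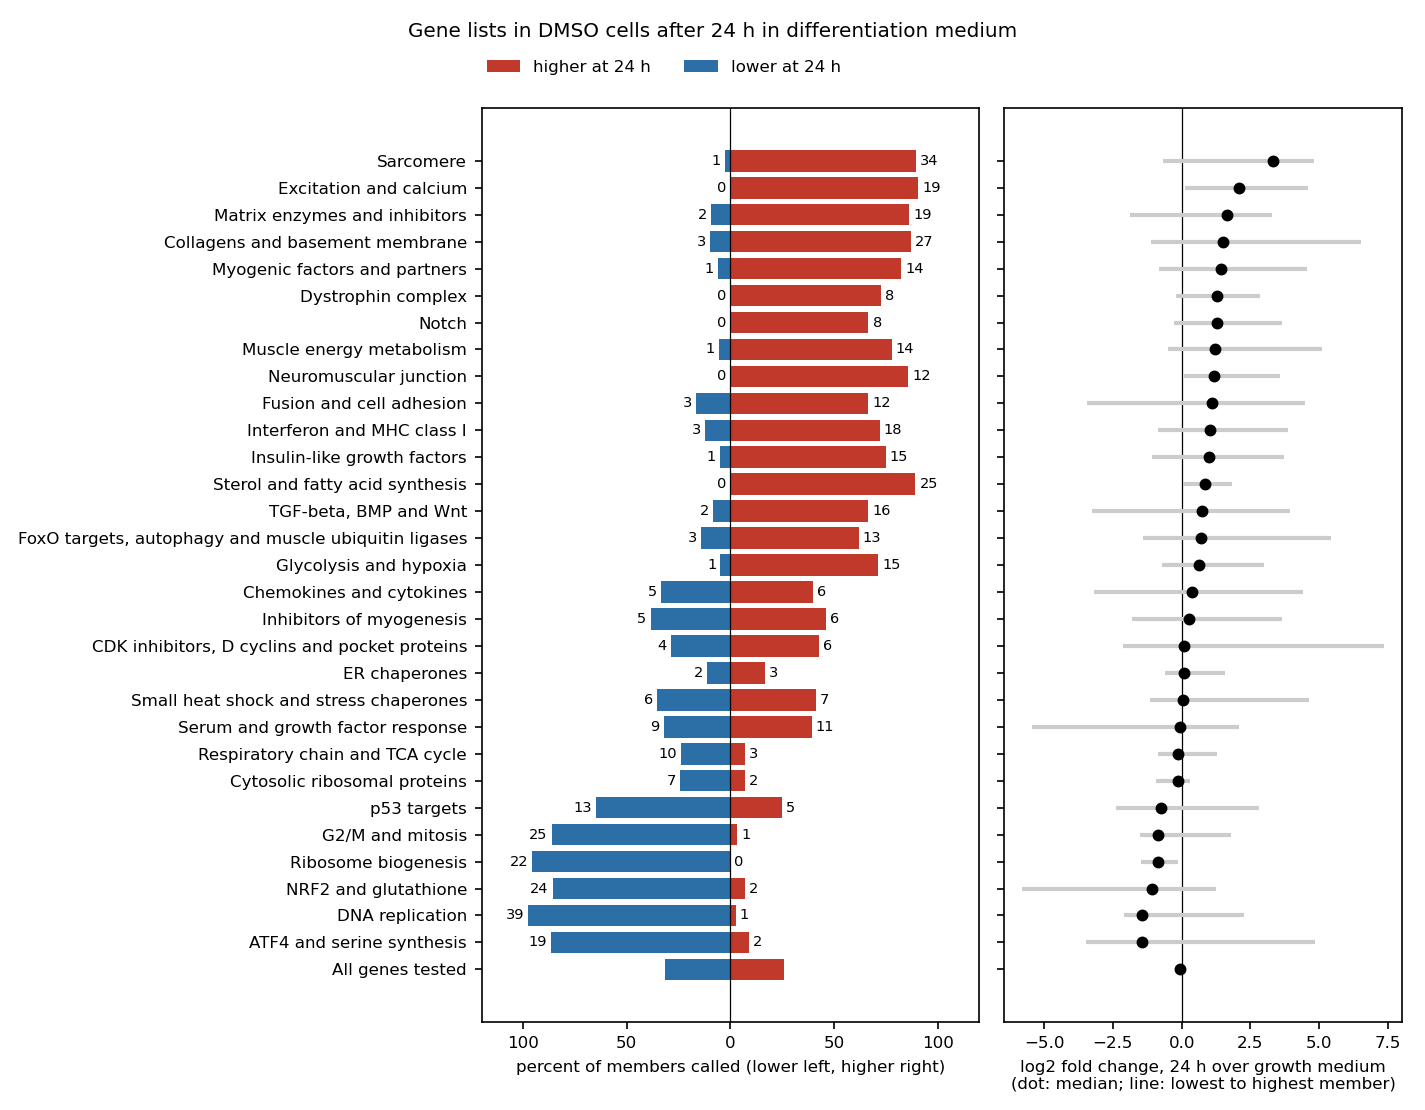
For each pathway list, the left panel gives the percent of tested members called lower (blue, to the left) and higher (red, to the right) at 24 h, with the number of members beside each bar and all genes tested in the bottom row. The right panel gives the median (dot) and the range (line) of the log2 fold change of 24 h over growth medium. Of the pathway lists drawn, which leave out that of 2 proliferin genes, Sarcomere lies at 1 end with a median of 3.32, and the ATF4 list at the other with -1.45.

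The machinery of DNA replication fell. Of 40 genes tested, 39 fell and 1 rose, with a median of -1.44. Mcm5, a subunit of the helicase that opens DNA, gave 9.84 and 10.26 at 24 h, against 11.80 and 11.92 in growth medium, and fell by 1.81 (SE 0.17, adjusted p = 9.51e-06). The largest falls were those of Chaf1b (-2.11), a histone chaperone gene, Cdt1 (-2.04), which licenses origins, and Fen1 (-2.03), a flap nuclease gene. The exception was E2f2, a member of the factor family that drives these genes. It gave 10.31 and 10.15 at 24 h, against 8.0 and 7.96 in growth medium, a rise of 2.25 (SE 0.19, adjusted p = 4.01e-06), and its other 2 probes rose by 1.65 and 2.09. E2f1 fell by 1.28.

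Mitotic genes fell by less on the median. Among 29 tested, 25 fell, 1 rose and the median was -0.86. Cdk1, the kinase that starts mitosis, gave 9.82 on both arrays at 24 h, against 11.03 and 11.12 in growth medium, and fell by 1.26 (SE 0.15, adjusted p = 4.14e-05). Its cyclin gene Ccnb1 gave 9.57 and 9.65 at 24 h, against 10.74 and 10.80 in growth medium, and fell by 1.16 (SE 0.15, adjusted p = 9.28e-05). Neither gene's arrays overlapped between the groups, as for 43.8% of all genes tested in that direction. Mad2l1, of the spindle checkpoint, fell by 1.52, Espl1 by 1.33 and Incenp by 1.29. Kif23, a kinesin gene, rose by 1.79 on the probe used while its other 2 probes fell by 1.13 and 0.97, so its direction is not settled. Cdc25b (0.22), Cenpf (-0.31) and Nusap1 (-0.53) did not pass. With 16 members lower, a smaller count came from probes detected on all 12 arrays, where fewer of these genes are kept.

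The 250 bases before the starts of Mcm5, Ccnb1 and Cdk1 are shown because these genes fell together. They are from RefSeq GRCm38.p6: Mcm5 at chr8:75109259-75109508 (plus strand), Ccnb1 at chr13:100786487-100786736 (minus strand) and Cdk1 at chr10:69352913-69353162 (minus strand). Capitals mark matches, on either strand, to an E2F motif (TTTCCCGC, TTTCGCGC, TTTGCCGC or TTTGGCGC), to the cell cycle element TTTGAA called CHR, and to the CCAAT box.
Mcm5: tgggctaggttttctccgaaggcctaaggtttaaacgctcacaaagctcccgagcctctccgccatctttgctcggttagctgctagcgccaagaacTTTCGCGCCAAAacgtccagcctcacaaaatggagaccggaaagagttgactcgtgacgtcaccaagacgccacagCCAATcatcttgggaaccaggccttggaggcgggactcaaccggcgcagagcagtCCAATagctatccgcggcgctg
Ccnb1: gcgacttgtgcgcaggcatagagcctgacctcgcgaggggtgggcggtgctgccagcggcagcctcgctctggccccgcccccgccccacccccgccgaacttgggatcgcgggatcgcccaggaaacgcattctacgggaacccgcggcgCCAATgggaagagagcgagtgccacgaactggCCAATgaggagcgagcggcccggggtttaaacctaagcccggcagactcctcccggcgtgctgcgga
Cdk1: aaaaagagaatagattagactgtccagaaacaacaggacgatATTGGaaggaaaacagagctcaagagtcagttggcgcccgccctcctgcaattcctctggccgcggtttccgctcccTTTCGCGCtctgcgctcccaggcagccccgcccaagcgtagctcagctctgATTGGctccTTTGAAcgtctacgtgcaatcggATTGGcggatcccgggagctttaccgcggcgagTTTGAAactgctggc
Mcm5 has 2 overlapping E2F matches, on opposite strands, at -153 to -142 and 2 CCAAT boxes. Ccnb1 has 2 CCAAT boxes and no match to the other 2 motifs in this window. Cdk1 has 1 E2F match at -131 to -124, 2 CHR matches and 3 CCAAT boxes on the other strand. An E2F match was found in 21.1% of 38 promoters of the replication list and in 3.3% of those of the genes tested (1.9% of all promoters). A CHR match was found in 36.0% of 25 promoters of the mitotic list and in 10.3% of those of the genes tested (16% of all), and a CCAAT box in 68.0% and 35.1% (33.8% of all).

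Inhibitors of the cell cycle kinases, D cyclins and the retinoblastoma family changed in both directions. Cdkn1c, which encodes the kinase inhibitor p57, showed the largest rise of all genes detected on the 4 arrays. It gave 13.22 and 13.21 at 24 h, against 5.74 and 5.97 in growth medium, a rise of 7.36 (SE 0.95, adjusted p = 7.44e-05). Cdkn1a, which encodes p21, was bright at both stages, with 13.30 and 13.21 at 24 h, against 12.35 and 12.49 in growth medium, a rise of 0.83 (SE 0.12, adjusted p = 0.000124). Rb1, the retinoblastoma gene, rose by 1.30 (SE 0.10, adjusted p = 2.98e-06). Cdkn1b, which encodes p27, rose by 0.63 (SE 0.20, adjusted p = 0.0215). It was not called when replicate 1 of growth medium (adjusted p = 0.127) or replicate 2 at 24 h (adjusted p = 0.125) was left out, with median scaling (adjusted p = 0.0549) or with no detection filter (adjusted p = 0.0613). Ccnd1, cyclin D1, gave 11.04 and 11.43 at 24 h, against 13.32 and 13.39 in growth medium, and fell by 2.12 (SE 0.13, adjusted p = 1.26e-06), and Ccnd2 fell by 1.88. Cyclin D3 went the other way, Ccnd3 rising by 2.01, although 1 of its 3 probes read 0.20 and was not called. The retinoblastoma relative Rbl1 fell by 1.10. The list of 14 had 6 higher and 4 lower, beside 26.1% and 31.5% of all genes tested, and its median was 0.10, or -0.14 with median scaling.

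Genes that answer to serum and growth factors moved both ways. Of 28 tested, 11 rose and 9 fell (median -0.05, or -0.18 with median scaling). Over all genes tested, 26.1% rose and 31.5% fell, so the share of falls is near that of any gene. Areg, the growth factor amphiregulin, gave 5.35 and 6.81 at 24 h, where 1 of 2 arrays detected it, against 11.54 and 11.47 in growth medium, and fell by 5.42 (SE 0.42, adjusted p = 3.12e-06). Hmga1, a chromatin protein gene of dividing cells, gave 8.87 and 9.24 at 24 h, against 12.54 on both growth-medium arrays, and fell by 3.49 (SE 0.15, adjusted p = 4.27e-07). Its other probe fell by only 1.08. The urokinase receptor gene Plaur fell by 2.84. Myc fell by 0.60 (SE 0.14, adjusted p = 0.0032). The early growth response genes Egr3 and Egr1 rose by 2.09 and 1.45, and Ccn2, a matrix growth factor gene, by 1.95. The Egr genes are known as fast targets of fresh serum.

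**Figure D4:**
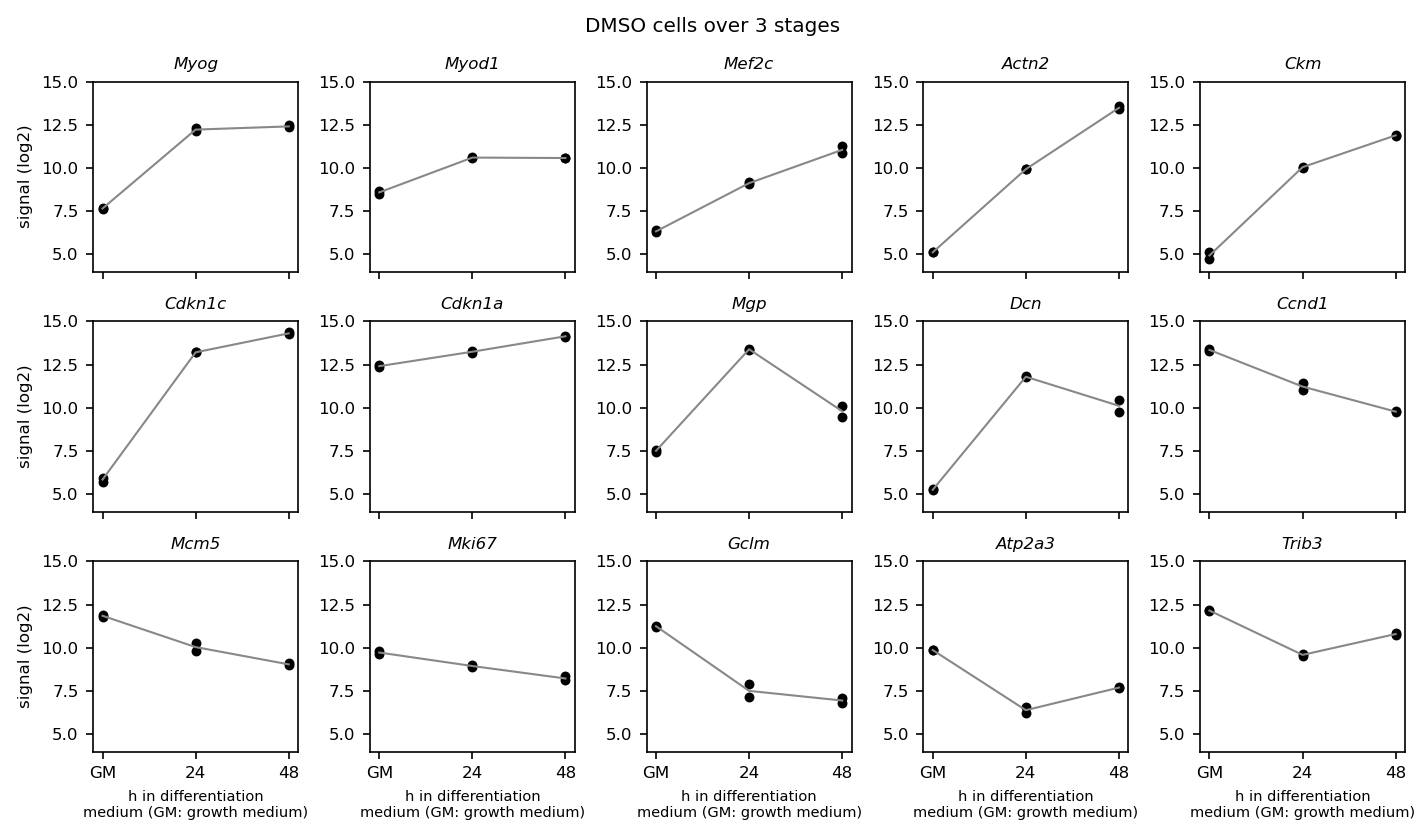
Normalized log2 signal of 15 genes on each DMSO array (points, 2 per stage) in growth medium and after 24 h and 48 h in differentiation medium, with lines through the group means. Myog and Myod1 sit level between 24 h and 48 h, Actn2 and Mef2c keep climbing, and Mgp, Atp2a3 and Trib3 turn back.

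Ribosome building genes fell. Of 23 genes tested for ribosome biogenesis, 22 fell and none rose (median -0.87). The box C/D particle gene Nop56 gave 9.79 and 10.01 at 24 h, against 11.44 and 11.32 in growth medium, and fell by 1.49. Pno1 fell by 1.21, and Rrs1, which was not detected at 24 h, at least 1.54-fold. Polr1a, the large subunit of RNA polymerase I, did not pass (-0.15, adjusted p = 0.248). Cmss1 fell by 3.18 (SE 0.20, adjusted p = 1.39e-06).

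Genes of the antioxidant factor NRF2 and of glutathione included many of the steepest falls. Of 28 tested, 24 fell and 2 rose, with a median of -1.07. Gclm, a subunit of the enzyme that starts glutathione synthesis, gave 7.14 and 7.89 at 24 h, against 11.28 and 11.23 in growth medium, and fell by 3.74 (SE 0.25, adjusted p = 1.57e-06). Slc7a11, the importer of cystine for glutathione, gave 5.84 and 6.83 at 24 h, against 10.80 and 10.73 in growth medium, and fell by 4.43 (SE 0.37, adjusted p = 3.82e-06). Its other 3 probes changed by between -2.81 and -1.59. Hmox1, heme oxygenase, gave 7.82 and 8.21 at 24 h, against 11.63 and 11.36 in growth medium, and fell by 3.48 (SE 0.18, adjusted p = 7.22e-07). Srxn1, which repairs peroxiredoxins, fell by 3.46 (SE 0.22), and Nqo1, a quinone reductase gene, by 3.21 (SE 0.33). The glutathione transferase genes Gsta1 and Gsta2, each detected on 1 of 2 arrays at 24 h, fell by 5.79 and 5.13, but they are near-identical and a probe may read both. Gsta4, of the same class, fell by 3.28. Nfe2l2, which encodes NRF2, fell by 0.45 and its inhibitor Keap1 by 0.35. Gstt1 (at least 1.48-fold) and Gstm5 (0.54) rose, and Gstm1 (0.21) and Mgst1 (0.18) did not pass.

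Replicates differed in how far the strongly changed genes moved. Of 113 genes called lower by at least 2 log2 units, 102 read higher on replicate 2 at 24 h than on replicate 1, by a median of 0.40. Of the 418 genes called higher by that much, 118 did, with a median gap of -0.095. In the genes that were not called the median gap was 0.00. Prl2c2, a proliferin gene, gave 4.68 and 8.10 at 24 h, where 1 of 2 arrays detected it, against 11.75 and 11.96 in growth medium. Both of its arrays at 24 h still lay below both growth-medium arrays, as for 43.8% of all genes tested. Prl2c2 fell by 5.47 (SE 0.84, adjusted p = 0.000256) and its near-identical relative Prl2c3, also detected on 1 of 2, by 6.14 (SE 0.48), and their median was -7.12 without replicate 2 and -4.49 without replicate 1. The 75th percentile of the deposited signal was 132.3 and 123.1 on the 24 h arrays, against 144.9 and 154.9 in growth medium, and its part in this gap was not tested.

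Amino acid stress genes fell as well. The list of targets of the factor ATF4 and of serine synthesis had 19 of 22 genes lower and 2 higher (median -1.45). Slc7a3, an importer of arginine and lysine, gave 8.20 and 8.59 at 24 h, against 11.96 and 11.79 in growth medium, and fell by 3.48 (SE 0.18, adjusted p = 8.32e-07). The stress cytokine gene Gdf15 fell by 3.15, Cth, which makes cysteine, by 3.06, and Phgdh, the entry enzyme of serine synthesis, by 2.19. Fgf21 is also known as a target of ATF4, but it stood at the other end. It gave 10.96 and 10.89 at 24 h, against 6.13 and 6.03 in growth medium, a rise of 4.84 (SE 0.41, adjusted p = 4.85e-06). Nupr1 rose by 0.42 and Vldlr did not pass on the probe used (-0.33, adjusted p = 0.0538), while 2 of its other 4 probes were called lower (-0.505 and -0.484).

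Targets of p53 fell on balance, with 13 of 20 lower and 5 higher (median -0.77). Mdm2, which encodes the ligase that destroys p53, gave 10.29 and 10.41 at 24 h, against 12.75 and 12.68 in growth medium, and fell by 2.37. Gtse1 fell by 2.00 and Sesn2, which is also in the ATF4 list, by 1.69. The gene of p53 itself, Trp53, fell by 0.90. Sesn1 rose by 2.82, Pmaip1 at least 2.38-fold and Gadd45b by 1.58, with Gadd45g (1.17) and Fas (0.72) also higher. Another probe of Pmaip1, Fas and Trp53 each was not called, as was 1 of Myh7, Ttn and Myof above. Cdkn1a, the best known target, is given above with the cell cycle.

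Extracellular matrix genes rose. Of 31 collagen and basement membrane genes tested, 27 rose and 3 fell (median 1.50). Col6a1, of the collagen that surrounds muscle fibres, gave 12.71 and 12.62 at 24 h, against 7.92 and 7.98 in growth medium, a rise of 4.71 (SE 0.43, adjusted p = 6.92e-06). Dcn, the small proteoglycan decorin, gave 11.76 and 11.85 at 24 h, against 5.29 and 5.24 in growth medium, where it was not detected. It rose at least 84.1-fold on the probe used, while other Dcn probes rose by 5.12 and 1.26 log2 units. Mgp, an inhibitor of calcification, gave 13.41 and 13.38 at 24 h, against 7.46 and 7.58 in growth medium, a rise of 5.87 (SE 0.78, adjusted p = 9.32e-05). The arrays of the groups lay far apart in all 3. Nid1 (-1.12), Col7a1 (-0.97) and Col18a1 (-0.67) fell, with Col7a1 detected on 1 of 2 arrays at 24 h, and Lamb1 did not pass (0.45). Other matrix genes among the largest rises were Olfml3 (5.62), C1qtnf3 (5.18), the collagen receptor gene Itga11 (4.65), Ogn (4.60) and Prelp (at least 43.1-fold).

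Matrix enzymes and their inhibitors had 19 of 22 genes higher and 2 lower (median 1.63). The gelatinase gene Mmp9 rose by 3.27, the crosslinking enzyme gene Loxl1 by 3.04 and Adamts7 by 2.67. The inhibitor genes Timp3 and Timp1 fell by 1.88 and 0.79, while Timp2 rose by 1.01, and Mmp11 did not pass (-0.18). Of 10 fibroblast markers 6 were tested and 5 rose, among them Pdgfra (1.8), although Dcn, Col1a1 and Col3a1 are also in the collagen list, and Thy1, Dpt and Tcf21 did not pass the detection filter. The summed signal of the list was 13.57 and 13.44 at 24 h, against 10.88 and 10.85 in growth medium, on the log2 scale. Of 10 smooth muscle markers 7 were tested and 5 rose, including Mylk (3.72). Myh11, Myocd and Cnn1 did not pass it either, and Acta2 did not pass on the probe used (0.18) while its other 4 probes rose by 1.17 to 1.41. Their part in the matrix values was not tested.

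Signals that act on these cells changed too. In the TGF-beta, BMP and Wnt list 16 of 24 genes rose and 2 fell (median 0.74). With median scaling 12 rose and the median was 0.39, and with the 75th percentile 13 rose and 4 fell. Smad3, which carries the TGF-beta signal to the nucleus, rose by 3.41, the ligand gene Tgfb2 by 3.29, and Fst, which encodes the myostatin blocker follistatin, by 3.51. Dkk3 rose by 3.96, with 1 of its growth-medium arrays not detected. Grem1, a blocker of BMPs, gave 6.61 and 7.62 at 24 h, against 10.45 and 10.33 in growth medium, and fell by 3.27 (SE 0.36, adjusted p = 2.29e-05), and the activin gene Inhba fell by 1.10.

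Insulin-like growth factors push myoblasts to differentiate as well as to grow. Of 20 genes tested around them, 15 rose and 1 fell (median 0.99, or 0.66 with median scaling). Igf2 gave 13.90 and 13.96 at 24 h, against 10.85 on both growth-medium arrays, a rise of 3.08 (SE 0.27, adjusted p = 5.93e-06). Igf1 rose at least 6.75-fold, and the imprinted genes Mest and H19 by 3.72 and 2.73. The RNA-binding protein gene Igf2bp3, with 1 of 2 arrays detected at 24 h, fell by 1.09, and Grb10, Igfbp7, Igfbp6 and Meg3 did not pass (between -0.28 and 0.30). Among 21 FoxO targets, autophagy genes and ubiquitin ligases 13 rose and 3 fell (median 0.69, or 0.38 with median scaling). Asb2, a ligase subunit of muscle, rose at least 23.9-fold, Klhl40 at least 8.93-fold, and the atrophy ligase genes Trim63 and Fbxo32 at least 3.48-fold and by 1.25. Sqstm1, which is also a target of NRF2, fell by 1.40, Cited2 by 0.71 and Ctsl by 0.50.

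Lipid and sugar pathways rose by smaller steps. In sterol and fatty acid synthesis 25 of 28 genes were higher and none lower, with a median of 0.84, or 17 higher and a median of 0.50 with median scaling. The desaturase genes Scd1 and Scd2 rose by 1.77 and 1.67, and Srebf2, the master regulator of sterol synthesis, by 1.54. Idi1, Fads1 and Acly did not pass (0.28, 0.08 and 0.06). In glycolysis and hypoxia 15 of 21 rose and 1 fell (median 0.65, or 0.39 with median scaling). Pdk1, which holds pyruvate out of mitochondria, rose by 3.0 and Ankrd37, a target of hypoxia factors, by 2.29. Vegfa, the vessel growth factor and a classical target of the same factors, gave 10.82 and 10.75 at 24 h, against 11.60 and 11.43 in growth medium, and fell by 0.73.

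Interferon and antigen presentation genes rose, and the labels name no added cytokine. Of 25 tested, 18 rose and 3 fell (median 1.02). Gbp2, a GTPase gene induced by interferon, gave 8.96 and 8.73 at 24 h, against 5.0 and 4.98 in growth medium, where it was not detected, and rose at least 10.8-fold. The lower bound of the rise was 4.66-fold for Igtp, another GTPase gene. For Oasl2, of the oligoadenylate synthetase family, it was 7.06-fold on the probe used, while the other Oasl2 probe rose by 0.96 log2 units. Both genes are also induced by interferon. The MHC class I heavy chain genes H2-K1 and H2-D1 fell by 0.82 and 0.45, although the other H2-D1 probe read 0.21 (adjusted p = 0.127), while B2m, the light chain, rose by 0.46. Irgm1 fell by 0.86 on the probe used and rose by 0.39 on the other. The median was 0.65 with median scaling. Over probes detected on all 12 arrays only 15 of these genes were tested, of which 9 rose and 3 fell, with a median of 0.485. Of 15 chemokines and cytokines 6 rose and 5 fell, beside 26.1% and 31.5% of all genes tested (median 0.37, or 0.14 with median scaling). Ccl9 rose at least 12.2-fold and Il33 at least 4.55-fold, whereas Ptx3 fell by 2.19, Csf1 by 1.93 and Lcn2, which was not detected at 24 h, at least 4.77-fold.

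A few genes with large changes lay outside these lists. Parm1 rose at least 61.5-fold on the probe used, Medag at least 29.0-fold and Rgcc, a regulator of the cell cycle, at least 26.4-fold. The other Parm1 probe rose by 3.92 log2 units. Cdsn, an adhesion protein gene known from skin, gave 5.98 and 7.23 at 24 h, against 12.03 and 11.86 in growth medium, and fell by 5.34 (SE 0.43, adjusted p = 3.36e-06). Genes detected in growth medium and on neither 24 h array included Taf7l (at least 12.8-fold lower), a gene of the transcription machinery known from testis, Prr9 (12.3-fold), Havcr2 (9.72-fold), Serpinb2 (6.40-fold) and Lrp8 (5.42-fold), all as lower bounds. The other Lrp8 probe fell by 0.95 log2 units. Try10 and Try4, near-identical trypsinogen genes, fell at least 4.93-fold and 4.60-fold. Kat2b, which encodes PCAF, an acetyltransferase that acts on MyoD, gave 6.31 and 6.29 at 24 h, against 5.22 and 5.58 in growth medium, where 1 of 2 arrays detected it, and rose by 0.90 (SE 0.14, adjusted p = 0.000233).

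What the first day left for the second was read from the DMSO arrays at 48 h. The comparison shares the 24 h arrays with the one above, so its values are only set beside it. It called 15.2% of the genes tested higher and 17.6% lower at 48 h than at 24 h, which is 32.7% in all. Between 24 h and 48 h Myog changed by 0.19 (adjusted p = 0.794) and Myod1 by -0.03 (adjusted p = 0.922), and neither was called. Mef2c rose by a further 1.93 (adjusted p = 0.00011). Actn2 and Cdkn1a, with the same adjusted p of 0.000307, rose by 3.55 and 0.89. Cdkn1c, at 1.10, was not called (adjusted p = 0.41). Myf6, which was not detected at 24 h, was at least 1.69-fold higher at 48 h (adjusted p = 8.69e-06). Some first-day changes turned back: Mgp fell by 3.58 (adjusted p = 0.00593), Mmp9 by 2.22 (adjusted p = 0.000741) and Igf1 by 1.35 (adjusted p = 0.012), while Atp2a3 rose by 1.31 (adjusted p = 0.000144), Trib3 by 1.20 (adjusted p = 0.000489), Timp3 by 1.28 (adjusted p = 4.77e-05) and Cox6a2 by 1.84 (adjusted p = 3.00e-06). Dcn, at -1.68, was not called (adjusted p = 0.116). The fall of Ccnd1 and Mcm5 went on, by 1.45 (adjusted p = 3.6e-05) and 1.0 (adjusted p = 0.00165).

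The same first day was measured with embelin on 4 other arrays, and there 3127 genes (27.3%) were called higher and 3425 (29.9%) lower, 57.2% in all. In both treatments 5577 genes were called with the same sign, which is 85.1% of the embelin calls and 84.5% of the DMSO calls, and 6 with opposite signs. The difference between the first days was called for 0 of 11452 genes in limma (lowest adjusted p 0.385), with 811 at an unadjusted p under 0.05. With a trended, robust prior it was called for 4. That test leans on the embelin growth-medium arrays. Without replicate 1 of that group, 256 genes were called, and without replicate 2, the array that stood apart, 1 was. Cdkn1c shows the size of the gap: its difference between the first days was -2.80 (SE 1.34, adjusted p = 0.708), and embelin cells in growth medium read 5.90 and 10.06. Myog rose by 3.53 in embelin cells and 4.56 in DMSO cells (difference -1.03, adjusted p = 0.799). In growth medium embelin cells read 7.57 and 9.63 for Myog, the higher value on replicate 2, the array that stood apart. At 24 h Myog read 12.10 and 12.15 in embelin cells, against 12.32 and 12.11 in DMSO cells. The median of the sarcomere list was 2.51 in embelin cells and 3.32 in DMSO cells, and that of DNA replication -1.68 and -1.44. The embelin medians include the array that stood apart, and no member of either list was called for the difference.

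**Figure D5:**
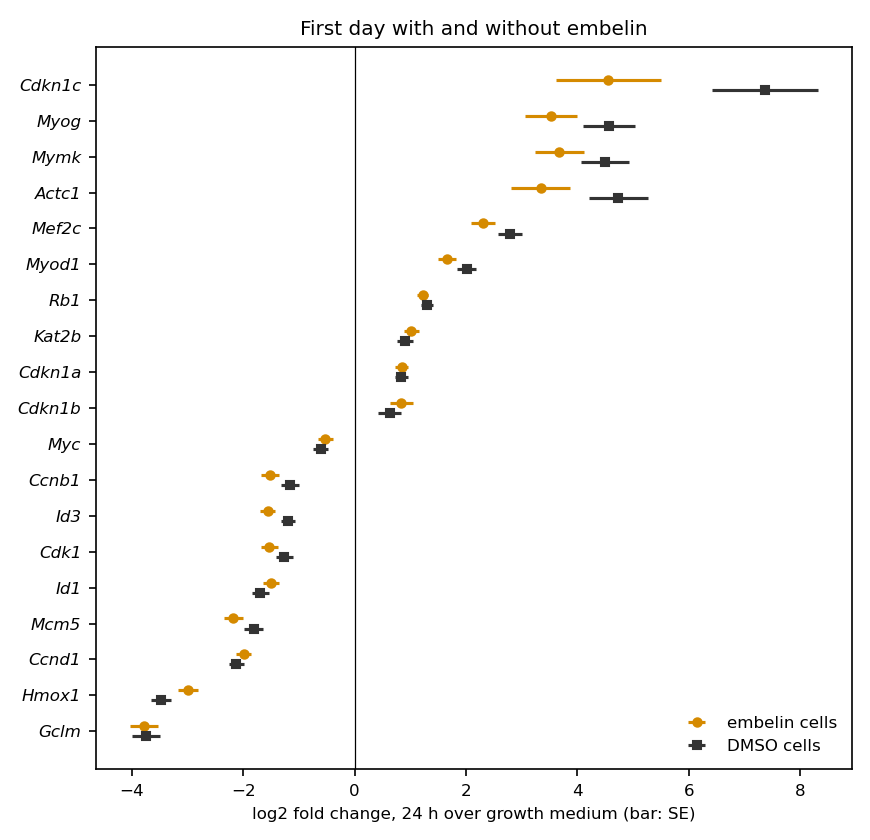
Log2 fold change of 24 h over growth medium for 19 genes in embelin cells (orange circles) and in DMSO cells (black squares), with bars of 1 SE from the fit to all 12 arrays. Cdkn1c has the widest bars (SE 0.95), and no gene shown was called for a difference between the treatments.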

How the data were processed

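The deposited intensity values are GenomeStudio mean bead signals per probe, not normalized per the file headers, with a detection score (1 minus the detection p) beside each. The version is 1.8.0 per the file headers and 2010.2 per the submitters' processing notes. The deposited series matrix holds log2 values that equal the log2 signal minus the array's 75th percentile and the probe's median (100% within 0.006), with array medians near 0, and was used only as an alternative. The labels name an Agilent labelling kit, whereas the headers and probes are those of Illumina MouseWG-6 arrays.

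Background correction (offset 16), quantile normalization and the log2 step used neqc, from limma 3.58.1 (R 4.3.3). The 16981 probes that both arrays of some group detected (p under 0.01) were kept, and the probe of highest mean stood for each of 11452 genes. Of 3829 genes with several kept probes, 43 had probes called in opposite directions. The size of a change also depended on the probe, as for Myog, with a rise of 4.56 on the probe used and 2.86 on the other. Symbols were updated through RefSeq on GRCm38.p6 (9527 of 45281 probes kept the name in the file). The 6 group means were fitted on all 12 arrays (6 residual and 4.51 prior degrees of freedom), with Benjamini-Hochberg adjustment over all genes. The steps were tested on simulated data. Tables and figures used Python 3.11.15 with pandas 2.3.3 and matplotlib 3.10.9.

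A gene not detected on any array of a group has only a lower bound, written as at least N-fold: the brighter mean over a floor, which on each array of the dim group is the lowest signal of any detected probe, or the probe's own where that is higher. In addition to Kat2b and a set of myogenic and cell cycle genes, the text names the 12 largest changes each way among genes detected on all 4 arrays, the 8 largest bounds each way, and the extremes and exceptions of each list. Predicted and clone names were skipped. The members and lists were chosen with earlier results of these data known. The replicate numbers were not used to pair the samples. Residuals of same-numbered arrays correlated at 0.05 between DMSO cells at 24 h and in growth medium. Over all pairs of groups the correlation lay between -0.03 and 0.24. It was highest between DMSO and embelin cells at 24 h (0.24), and was 0.13 between DMSO cells at 24 h and 48 h. A weak link between same-numbered arrays of those groups is thus not excluded. The alternatives were other scalings, offsets, filters and priors, the 4 arrays alone, the series matrix, the mean of all probes, a replicate block and each array left out. The number of arrays limits the precision. Intensities were not compared between probes. Results for a few genes are not reported here.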

Additional observations from a re-analysis of the deposited data

How the results depend on the processing

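Calls were counted again under each alternative. With the first day fitted otherwise, between 1760 (median scaling) and 3050 genes were called higher, and no gene called in both fits changed direction except 3 with the mean of all probes. Leaving out 1 DMSO array at a time gave 2502 to 2681 genes higher and 2915 to 3131 lower, and the 4 arrays alone gave 2973 and 3621. The embelin minus DMSO difference of the first day was called for 4 genes with a trended, robust prior and for 0 to 256 genes with 1 array left out, 256 being the count without replicate 1 of embelin in growth medium and 1 that without replicate 2, an alternative for the DMSO results chosen after seeing the data. The fit with a replicate block gave 3021 higher and 3672 lower, although same-numbered arrays correlated only at 0.05 between 24 h and growth medium. A block for slide could not be fitted because no slide is named. The median of the repressors of myogenesis was -0.068 under median scaling, and that of chemokines and cytokines -0.15 over probes detected on all 12 arrays. The cause of these shifts was not tested. Probes near background limit the low genes: 88 called genes were detected on none of the 4 arrays.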

Other observations

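Of 42 genes of the respiratory chain and citric acid cycle, 3 were higher and 10 lower at 24 h (median -0.14, or -0.37 with median scaling). With quantile normalization both shares lay below those of all genes tested (26.1% higher and 31.5% lower), as they did for the ribosomal protein genes below. The regulator gene Ppargc1b rose by 1.30 and Idh2 by 0.73, while Ndufa4 fell by 0.87, the cytochrome c gene Cycs by 0.78 and Mdh2 by 0.57. The count of lower genes was 20 under median or 75th percentile scaling, 5 without replicate 1 at 24 h and 6 without either growth-medium array. Of 29 cytosolic ribosomal protein genes 2 were higher and 7 lower (median -0.14, or -0.34 with median scaling), led by Rps27l, which fell by 0.95. Under median or 75th percentile scaling 13 were lower, with 0 and 1 higher, so the share of falls depends on the scaling. With any single DMSO array left out the median lay between -0.16 and -0.11.

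Of 18 chaperones of the endoplasmic reticulum 3 were higher and 2 lower (median 0.07, or -0.17 with median scaling). Here too both shares lay below the 26.1% higher and 31.5% lower of all genes tested. Xbp1, a factor of the secretory pathway, gave 12.48 and 12.27 at 24 h, against 10.72 and 10.86 in growth medium, a rise of 1.59, and Hyou1 fell by 0.59. Of 17 small heat shock and stress chaperones 7 were higher and 6 lower (median 0.05, or -0.23 with median scaling). Besides Unc45b, the muscle members Hspb3 (at least 3.24-fold), Hspb2 (2.46) and Cryab (2.18) rose, while the mitochondrial pair Hspd1 and Hspe1 fell by 1.13 and 1.10 and Hsp90aa1 by 1.0.

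Of the 6 genes called in opposite directions in the first day of embelin and DMSO cells, Usp25, detected on 1 of 2 arrays of DMSO cells at 24 h, changed by 0.47 in embelin cells and -0.61 in DMSO cells, and Tnfsf9 by 0.32 in embelin cells and -0.48 in DMSO cells. These 2 were chosen after their values were seen, and the difference was not called in either (adjusted p = 0.433 and 0.401).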
